A study of Lathyrus oleraceus with 9 samples.

Results

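The antioxidant enzymes and thiol redox proteins described here are 8 of the 5246 probes of a 2-colour oligonucleotide array made for pea. They stand for glutathione peroxidase, the IN2-1 glutathione-S-transferase, glutaredoxin S15, monodehydroascorbate reductase, Mn superoxide dismutase, thioredoxin h, peroxidase 42 and a putative peroxidase. The probes were picked by name from the study's list of probes that differed at least 2-fold between aged and non-aged seeds at 8, 12 or 15 d, so that the log2 aged/non-aged ratios below, and the calls made from them, describe the choice and are no test of it. Product names are those of the study's supplementary tables, and the choice of names was made with earlier results of these data known.

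Seeds of garden pea (Pisum sativum) cv Alaska Early were brought to a moisture content of 12% at 60% relative humidity. Non-aged control seeds were taken at that point, and aged seeds after 8, 12 or 15 d in sealed bottles at 50°C. Each array set aged against non-aged RNA from pools of 20 whole seeds, with 3 arrays for each ageing time (9 in all) and the dyes exchanged on replicate 2. A ratio holds no level in either seed lot, so that the labelled tissue could not be checked against marker genes. In pooled whole seeds, fewer cells of a type cannot be told apart from less RNA per cell. The paper reports loss of RNA integrity during ageing, seen already at its earliest ageing time, and used RNA of satisfactory quality for the arrays. It names mRNA degradation as a possible reason for the lower transcripts of several antioxidant genes. Whether RNA integrity affected the ratios was not tested here. The labels do not say whether arrays of different ageing times shared non-aged RNA.

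Reactive oxygen species form in seeds during storage, and aged seeds are known to accumulate oxidised lipids, proteins and nucleic acids. Superoxide is converted by superoxide dismutases to hydrogen peroxide, which peroxidases reduce to water with electrons from glutathione, ascorbate, thioredoxin or phenolic compounds. The spent donors are then regenerated at the expense of NADPH or NADH, and thioredoxins and glutaredoxins pass electrons on to the disulphides of other proteins.

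Of the 8 probes, 6 were lower in aged than in non-aged seeds on every array and 2 were higher on every array. At 8 d, 4 of the 8 were called down-regulated and 2 up-regulated, where a call needed a 2-fold difference either way (a log2 ratio of 1 or more in absolute value) and an adjusted p under 0.05 in limma. Of all probes on the array, 4.48% were called down-regulated and 2.52% up-regulated at 8 d. At 12 d, 4 members were called down and 1 up, beside 4.77% and 3.13% of all probes. At 15 d the numbers were 6 and 1, beside 7.09% and 5.64%. At all 3 times, 3 members were called down and 1 up, beside 3.91% and 1.89% of all probes. With no fold threshold all 8 were called at each time, 6 down and 2 up, beside 34.0%, 34.1% and 34.3% of all probes down and 36.8%, 37.1% and 38.2% up at 8, 12 and 15 d. Only glutathione peroxidase and peroxidase 42 were past a log2 ratio of -1.5 in any comparison, both at 15 d, as were 2.54% of all probes. Since the members were chosen by these ratios, their counts say nothing further. Over 8, 12 and 15 d the median log2 ratio of the members was -0.99, -1.03 and -1.14, and that of all probes 0.01, 0.01 and 0.02.

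**Figure D1:**
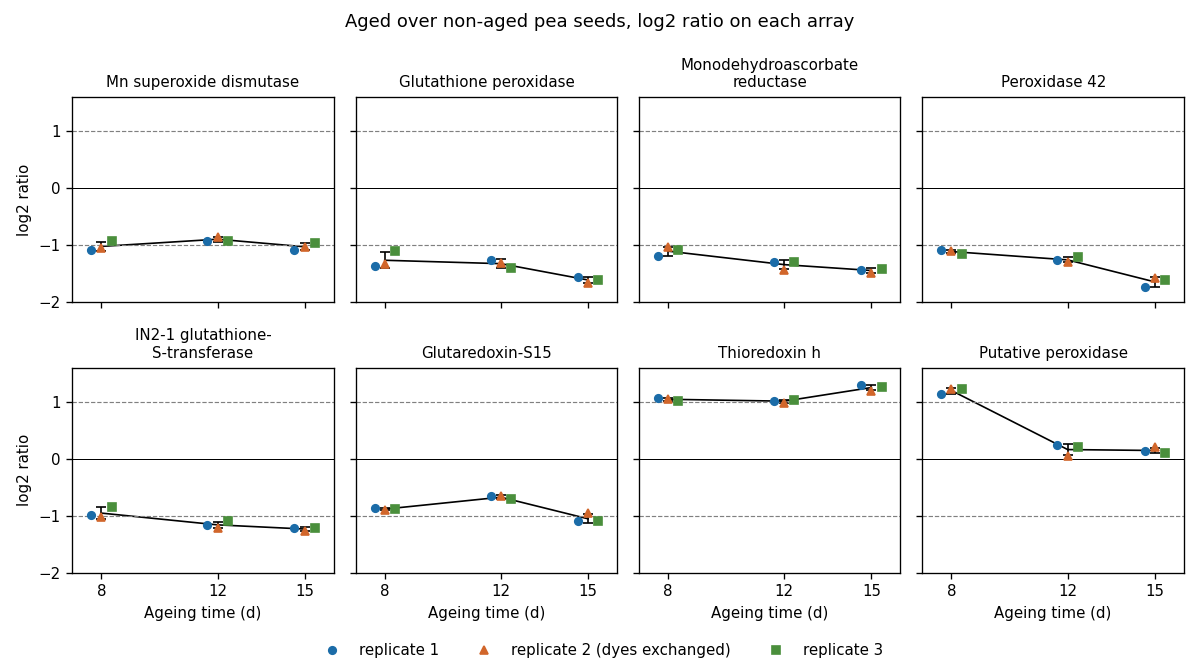
Log2 aged/non-aged ratio (y axis) against ageing time in days (x axis) for the 8 probes. Each symbol is an array, shifted sideways for clarity, lines and bars give the mean ± SD of 3 arrays, and dashed lines mark a 2-fold difference. The putative peroxidase stood between 1.14 and 1.23 at 8 d and between 0.05 and 0.24 at 12 d, whereas peroxidase 42 was lowest at 15 d.

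Mn superoxide dismutase (PSOLI04797), the mitochondrial enzyme that removes superoxide from the matrix, was near the 2-fold threshold throughout. In the order of replicates 1, 2 and 3, its log2 ratios were -1.09, -1.05 and -0.93 at 8 d, -0.92, -0.85 and -0.92 at 12 d and -1.09, -1.03 and -0.97 at 15 d. The arrays of 8 d and 15 d overlapped, and those of 12 d were the least negative, by a margin of 0.01 from 8 d and 0.05 from 15 d. The means were -1.02 ± 0.083 (SD, n = 3), -0.90 ± 0.040 and -1.03 ± 0.060, or 49.2%, 53.7% and 49.0% of the non-aged level. Here and below, percentages and folds of the non-aged level are relative to the other probes on the array. The normalised arrays had median log2 ratios of 0.01 to 0.02, so that a change in total mRNA would not be seen. On the deposited scale the difference between 15 d and 8 d was -0.01, the smallest in size among the members, and it was 0.15 with all arrays scaled to the same spread, larger than that of 5 other members.

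Glutathione peroxidase (PSOLI04501) reduces hydrogen peroxide and lipid hydroperoxides, in plants mostly with electrons from thioredoxin. Its arrays gave log2 ratios of -1.36, -1.34 and -1.10 at 8 d, -1.26, -1.31 and -1.41 at 12 d and -1.56, -1.66 and -1.62 at 15 d. All arrays of 15 d were lower than any of 8 d or 12 d, while those of 8 d and 12 d overlapped. The means were -1.27 ± 0.14 (SD, n = 3), -1.33 ± 0.076 and -1.61 ± 0.050, or 41.6%, 39.9% and 32.7% of the non-aged level. The spread at 8 d was larger than that of 92.9% of all probes, with replicate 3 the least negative.

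Monodehydroascorbate reductase (PSOLI00933), which regenerates ascorbate from its radical with NADH or NADPH, was already lower at 12 d than at 8 d. Its log2 ratios were -1.19, -1.04 and -1.09 at 8 d, -1.30, -1.43 and -1.30 at 12 d and -1.43, -1.49 and -1.42 at 15 d. The arrays of 8 d were all less negative than those of the later times, and the arrays of 12 d and 15 d overlapped. The means were -1.11 ± 0.076 (SD, n = 3), -1.34 ± 0.075 and -1.45 ± 0.038, or 46.4%, 39.4% and 36.7% of the non-aged level.

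Peroxidase 42 (PSOLI00944) is named after a secreted haem peroxidase of Arabidopsis, of the class that oxidises phenolic compounds in the cell wall with hydrogen peroxide. Its log2 ratios were -1.09, -1.10 and -1.15 at 8 d, -1.27, -1.30 and -1.21 at 12 d and -1.74, -1.58 and -1.62 at 15 d. The ageing times did not overlap, and the arrays of 15 d stood 0.28 below the lowest of 12 d. Its means were -1.11 ± 0.032 (SD, n = 3), -1.26 ± 0.046 and -1.65 ± 0.083, or 46.2%, 41.8% and 31.9% of the non-aged level. The 15 d mean was the lowest among the 8 members and ranked 96 from the lowest of all 5246 probes.

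The IN2-1 protein (PSOLI00698) takes its name from a maize gene induced by herbicide safeners. Such proteins belong to the lambda class of glutathione-S-transferases. The arrays gave log2 ratios of -0.99, -1.03 and -0.84 at 8 d, -1.17, -1.21 and -1.10 at 12 d and -1.22, -1.27 and -1.21 at 15 d. All arrays of 8 d were less negative than the rest, and those of 12 d and 15 d met at -1.21. The means were -0.95 ± 0.10 (SD, n = 3), -1.16 ± 0.056 and -1.23 ± 0.032, the first of which was short of the 2-fold threshold.

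Glutaredoxin S15 (PSOLI01145) is named after a mitochondrial monothiol glutaredoxin of Arabidopsis that binds an iron-sulphur cluster. Its log2 ratios were -0.87, -0.90 and -0.88 at 8 d, -0.66, -0.65 and -0.71 at 12 d and -1.10, -0.96 and -1.10 at 15 d. No arrays overlapped between ageing times, and those of 12 d were closest to 0. The means were -0.88 ± 0.015 (SD, n = 3), -0.67 ± 0.032 and -1.05 ± 0.081, or 54.2%, 62.7% and 48.2% of the non-aged level. The difference was 0.21 from 8 d to 12 d and -0.38 from 12 d to 15 d.

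Thioredoxin h (PSOLI04247), a cytosolic thioredoxin that reduces disulphides of target proteins and is itself reduced by an NADPH-dependent reductase, was higher in aged seeds at every time. Its log2 ratios were 1.07, 1.05 and 1.02 at 8 d, 1.01, 0.99 and 1.04 at 12 d and 1.29, 1.20 and 1.27 at 15 d. The arrays of 8 d and 12 d overlapped, and all of 15 d were higher. The means of 1.05 ± 0.025 (SD, n = 3), 1.01 ± 0.025 and 1.25 ± 0.047 are 2.07-fold, 2.02-fold and 2.38-fold of the non-aged level. It was the only 1 of the 8 that was called up-regulated at all 3 ageing times, as were 1.89% of all probes, and its 12 d mean was only just past 2-fold.

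The putative peroxidase (PSOLI00489), for which the name gives no class, was the member whose ratio depended most on ageing time. Log2 ratios were 1.14, 1.23 and 1.23 at 8 d, 0.24, 0.05 and 0.20 at 12 d and 0.14, 0.20 and 0.10 at 15 d. The arrays of 8 d were at least 0.90 above all others, and those of 12 d and 15 d overlapped. The mean of 1.20 ± 0.052 (SD, n = 3) at 8 d is 2.30-fold of the non-aged level and ranked 52 from the highest of all probes. At 12 d and 15 d the means of 0.16 ± 0.10 and 0.15 ± 0.050 are 1.12-fold and 1.11-fold, and 32.4% and 34.3% of all probes were higher. Of all probes, 0.305% were called up-regulated at 8 d alone, as this one was.

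**Figure D2:**
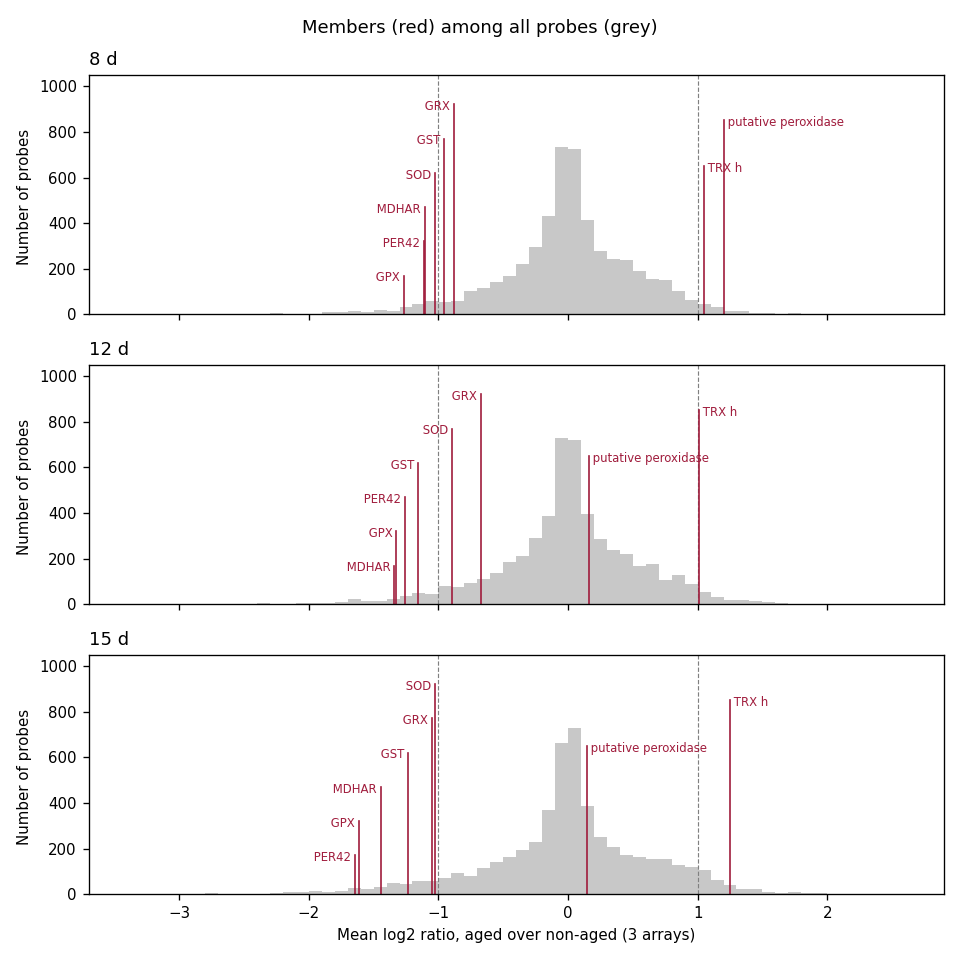
Number of probes (y axis) by mean log2 aged/non-aged ratio of 3 arrays (x axis), at 8, 12 and 15 d from top to bottom. Red lines mark the 8 members (GPX, glutathione peroxidase, PER42, peroxidase 42, MDHAR, monodehydroascorbate reductase, SOD, Mn superoxide dismutase, GST, IN2-1, GRX, glutaredoxin S15, TRX h, thioredoxin h), and their height carries no value. Grey bars are all 5246 probes and dashed lines a 2-fold difference, and the putative peroxidase moves from 1.20 at 8 d to 0.16 at 12 d, inside the bulk of the probes.

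The order of the members changed with ageing time. At 8 d glutathione peroxidase had the lowest mean, but along the order from glutathione peroxidase through peroxidase 42, monodehydroascorbate reductase, Mn superoxide dismutase and IN2-1 to glutaredoxin S15, the arrays of each pair of neighbours overlapped. At 12 d monodehydroascorbate reductase, glutathione peroxidase, peroxidase 42 and IN2-1 overlapped with their neighbours, and Mn superoxide dismutase and glutaredoxin S15 stood apart. At 15 d, peroxidase 42 and glutathione peroxidase overlapped, followed without overlap by monodehydroascorbate reductase, IN2-1 and then glutaredoxin S15, which overlapped with Mn superoxide dismutase.

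Whether the ratios changed between ageing times was tested with limma for the 4 members past the 2-fold threshold at all 3 times. That choice used the same arrays, and it left out members whose ratio was short of 2-fold at any time. It thus favoured ratios that held or grew in size, and was not independent of change between times. From 8 d to 15 d all 4 changed on the deposited scale, 3 downwards and 1 upwards, beside 18.2% and 19.8% of all probes. Most probes had smaller ratios than these 4, and ratios over the whole array were wider at 15 d. With all arrays scaled to the same spread, only 1 of the 4 still differed. Peroxidase 42 fell by 0.53 (95% confidence interval -0.65 to -0.41, adjusted p of 4.2e-06, limma contrast). Glutathione peroxidase fell by 0.35 (-0.49 to -0.20, adjusted p of 0.0011, limma) and monodehydroascorbate reductase by 0.34 (-0.46 to -0.22, adjusted p of 0.00031, limma). Thioredoxin h rose by 0.21 (0.10 to 0.31, adjusted p of 0.0046, limma).

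Differences between members in when they changed were not tested. Between 8 d and 12 d, monodehydroascorbate reductase fell by 0.24 (-0.36 to -0.11, adjusted p of 0.011, limma), beside 8.84% of all probes that were lower and 9.68% that were higher. That call was lost without replicate 2 (-0.16, adjusted p of 0.16) and without replicate 3 (-0.25, adjusted p of 0.065). Peroxidase 42 had a difference of -0.15 over the same interval (-0.27 to -0.03, adjusted p of 0.082, limma), with no overlap between arrays and an interval that overlapped that of monodehydroascorbate reductase. Over the same days the difference was for glutathione peroxidase -0.06 (-0.21 to 0.09) and for thioredoxin h -0.03 (-0.14 to 0.07). Between 12 d and 15 d peroxidase 42 fell by 0.39 (-0.51 to -0.27, adjusted p of 0.00019, limma) and glutathione peroxidase by 0.29 (-0.43 to -0.14, adjusted p of 0.0074, limma), while thioredoxin h rose by 0.24 (0.13 to 0.35, adjusted p of 0.0029, limma). Of all probes, 12.1% were lower and 12.1% higher over that interval. The call of glutathione peroxidase was lost without replicate 2 (-0.26, adjusted p of 0.080), and that of thioredoxin h between 8 d and 15 d without replicate 3 (0.19, adjusted p of 0.059). Monodehydroascorbate reductase had -0.10 (-0.23 to 0.02, adjusted p of 0.23, limma).

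Ratios over the whole array were wider at 15 d: the median absolute deviation of an array was 0.385 on the 8 d arrays, 0.400 on those of 12 d and between 0.445 and 0.460 on those of 15 d. The deposited values were thus close in scale within an ageing time but not across ageing times. With all arrays scaled to the same median absolute deviation, only peroxidase 42 of the 4 still differed between 15 d and 8 d, at -0.32 (-0.44 to -0.19, adjusted p of 0.0011, limma), beside 13.0% of all probes that were lower and 13.7% that were higher. It was also the only 1 that differed between 15 d and 12 d, at -0.21 (-0.34 to -0.09, adjusted p of 0.027, limma), beside 5.89% and 5.81%. Glutathione peroxidase then had -0.12 (-0.27 to 0.03, adjusted p of 0.22), monodehydroascorbate reductase -0.14 (-0.27 to -0.02, adjusted p of 0.086) and thioredoxin h 0.03 (-0.08 to 0.14, adjusted p of 0.72) between 15 d and 8 d. The fall of monodehydroascorbate reductase between 8 d and 12 d remained past the threshold, at -0.20 (adjusted p of 0.027, limma), beside 8.67% of all probes that were lower and 10.3% that were higher.

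For the other 4 members the differences between ageing times are given without a test, since they crossed the 2-fold threshold at some times only. Scaling left the pattern of the putative peroxidase, with a difference of -1.05 between 15 d and 8 d as deposited and -1.15 with equal deviations. Glutaredoxin S15 was still closest to 0 at 12 d after scaling, with 0.25 from 8 d to 12 d and -0.27 from 12 d to 15 d, but its difference between 15 d and 8 d went from -0.17 to -0.02. IN2-1 went from -0.28 to -0.11 between 15 d and 8 d, and Mn superoxide dismutase from -0.01 to 0.15. After scaling, glutaredoxin S15 (-0.97) and Mn superoxide dismutase (-0.94) were short of the 2-fold threshold at 15 d, which left 4 of the 8 members down-regulated there beside 6.08% of all probes, and IN2-1 (-1.02) passed it at 8 d, which made 5 beside 5.09%. At 12 d the number stayed at 4, beside 5.13%. The members called up-regulated numbered 2, 1 and 1 after scaling, beside 3.15%, 3.53% and 3.74% of all probes.

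**Figure D3:**
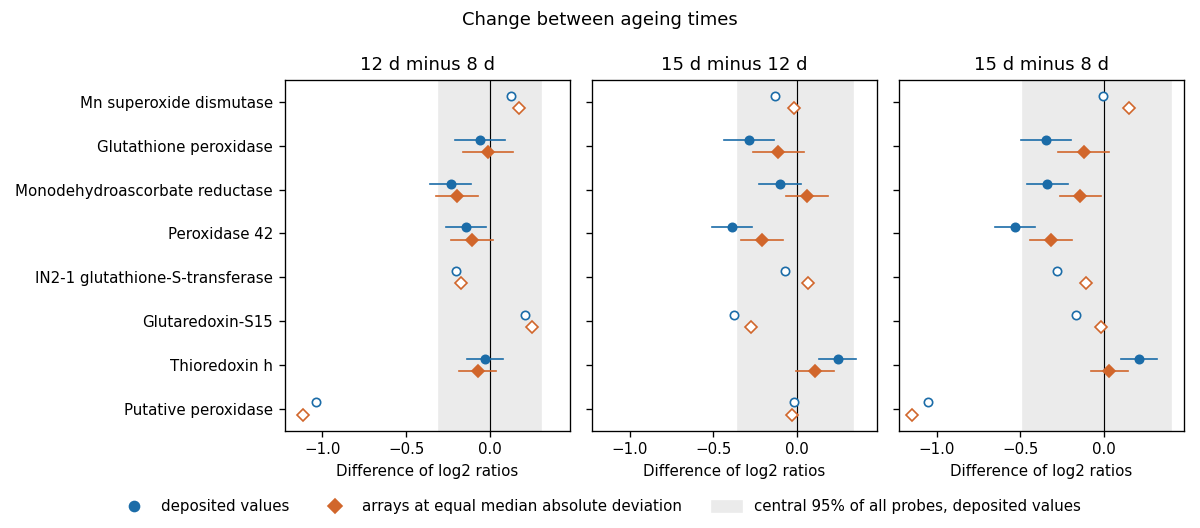
Differences of log2 ratios between ageing times (x axis) for the 8 members (y axis). Blue circles are the deposited values and orange diamonds those with all arrays at the same median absolute deviation. Filled symbols with lines are tested differences with 95% confidence intervals, open symbols are untested, and grey bands hold the central 95% of all probes. The change of peroxidase 42 from 8 d to 15 d, -0.53 as deposited, is -0.32 after scaling.

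Setting 15 d against 8 d, the arrays did not overlap for 7 of the 8 members, beside 47.0% of all probes. For 12 d against 8 d this held for 6 members, beside 33.7%, and for 15 d against 12 d for 5, beside 37.0%. These counts are from the deposited values, which were wider at 15 d, and were not made after scaling. Since the members were chosen for large ratios, the counts are no result about them. The SD between the 3 arrays of an ageing time ranged from 0.015 to 0.14 over the members, and the median over all probes was 0.062 at 8 and 15 d and 0.066 at 12 d. A dye term in the fit was at most 0.041 in size on the log2 scale for any of the 8 members. Its smallest unadjusted p was 0.11 from limma. The dyes were exchanged on replicate 2 alone, so that an effect of the dyes cannot be told apart from one of that replicate.

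**Figure D4:**
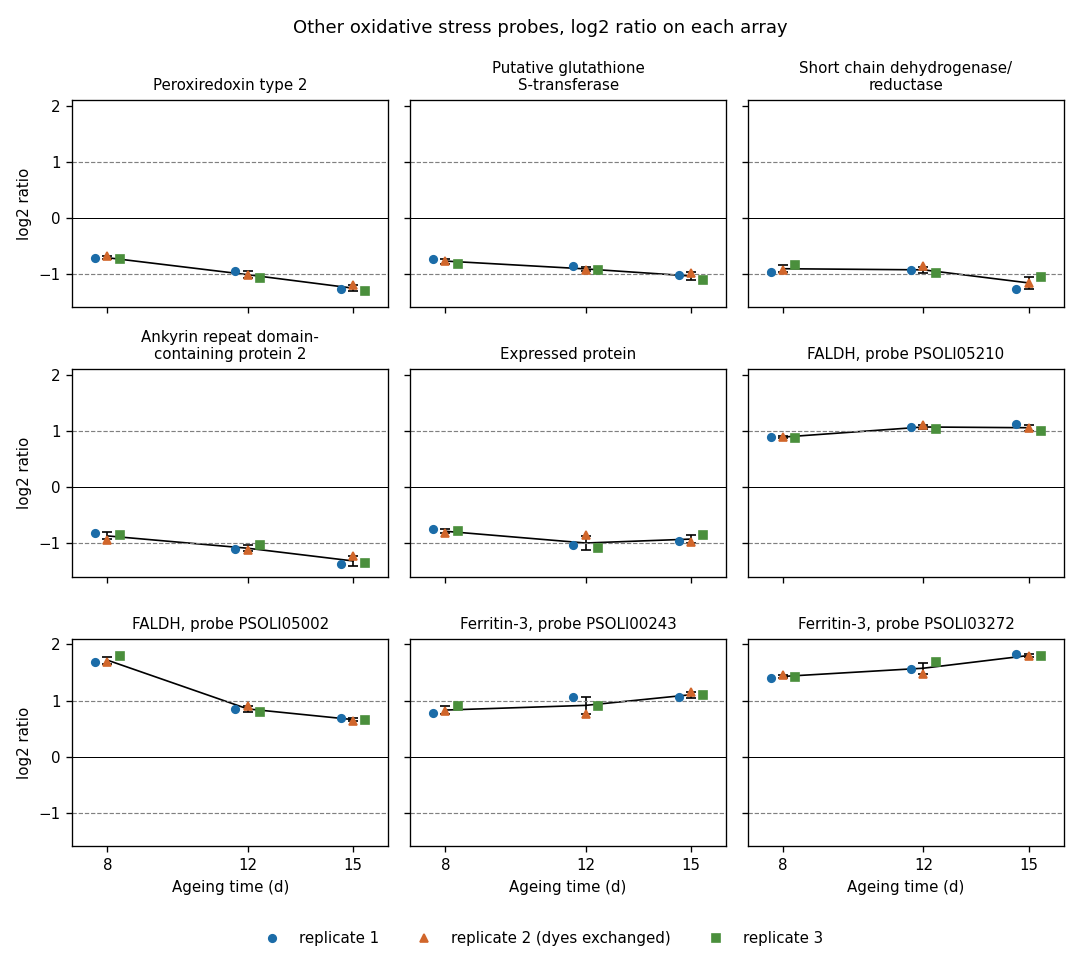
Log2 aged/non-aged ratio (y axis) against ageing time in days (x axis) for 9 further probes of the oxidative stress and ferritin groups; FALDH is glutathione-dependent formaldehyde dehydrogenase. Symbols are single arrays, lines and bars the mean ± SD of 3 arrays, and dashed lines a 2-fold difference. Peroxiredoxin went from -0.71 at 8 d to -1.26 at 15 d, and the expressed protein stayed inside the 2-fold lines on average.

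The supplementary tables name 9 further probes as redox enzymes, ferritins or members of the study's oxidative stress list. That list was drawn from these arrays, so that its counts are no independent evidence of direction. None of the 9 was called down-regulated at 8 d, 2 were at 12 d and 4 at 15 d, and 2, 2 and 3 were called up-regulated. Of all probes 4.48%, 4.77% and 7.09% were called down and 2.52%, 3.13% and 5.64% up. The median log2 ratios of the 9 were -0.71, -0.91 and -0.93, and those of all probes 0.01, 0.01 and 0.02. The 4 called down at 15 d were a peroxiredoxin, a glutathione S-transferase, a short chain dehydrogenase/reductase (PSOLI04794, -1.16 ± 0.11, SD, n = 3) and an ankyrin repeat protein (PSOLI00537, -1.32 ± 0.084). Peroxiredoxin type 2 (PSOLI04083), a thiol peroxidase that takes electrons from thioredoxin or glutaredoxin, had log2 ratios of -0.71, -0.69 and -0.74 at 8 d, -0.95, -1.03 and -1.07 at 12 d and -1.27, -1.20 and -1.30 at 15 d, with no overlap between times. A second glutathione S-transferase (PSOLI01032) had means of -0.77 ± 0.045 (SD, n = 3), -0.91 ± 0.038 and -1.04 ± 0.066. Both were thus closer to 0 at 8 d than the 6 members that were lower in aged seeds.

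Of the glutathione-dependent formaldehyde dehydrogenase probes, which stand for an enzyme that also reduces S-nitrosoglutathione, PSOLI05002 resembled the putative peroxidase in being highest at 8 d, with means of 1.72 ± 0.061 (SD, n = 3), 0.85 ± 0.050 and 0.66 ± 0.030. PSOLI05210 did not, with 0.89 ± 0.012, 1.07 ± 0.035 and 1.06 ± 0.056. The ferritin-3 probes, for an iron-storage protein, were higher in aged seeds at each time, up to 1.10 ± 0.051 (PSOLI00243) and 1.80 ± 0.023 (PSOLI03272) at 15 d. The member closest to the 2-fold threshold at its lowest mean was Mn superoxide dismutase, with -1.03 ± 0.060 at 15 d. An expressed protein (PSOLI00582) that the study's list also holds had a lowest mean of -0.997 ± 0.12 at 12 d in the deposited values, just short of the threshold, and how it entered the list was not examined.

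Among the 3 probes nearest to each member by Euclidean distance over the 9 arrays, none carried the name of an antioxidant enzyme. The tables name only 717 of the 5246 probes, so that an antioxidant enzyme among the unnamed probes would not be seen. Nearest to the putative peroxidase was PSOLI00300, not named in the tables, with means of 1.09, 0.13 and 0.06 over the ageing times and a distance of 0.32. Phosphofructokinase (PSOLI03813), a glycolytic enzyme, was the third nearest, with 1.04, 0.36 and 0.29. Glutaredoxin S15 was closest to a 40S ribosomal protein S12 (PSOLI01911) at -0.81, -0.63 and -1.03, followed by a class I heat shock protein (PSOLI02041) at -0.89, -0.63 and -1.19, and both were also closest to 0 at 12 d.

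The probes nearest to peroxidase 42 were 40S ribosomal protein S3-2 (PSOLI04042), the storage protein provicilin (PSOLI02231) and the actin-binding protein profilin-1 (PSOLI04268), with means between -1.64 and -1.68 at 15 d. For thioredoxin h they were hypothetical proteins only, the first of which (PSOLI00687) lay at a distance of 0.13. For monodehydroascorbate reductase the nearest was eukaryotic initiation factor 4A (PSOLI04311), and for glutathione peroxidase a YIPF5 protein (PSOLI01563). None of the 8 was among the 3 nearest probes of another, and the closest pair of members, monodehydroascorbate reductase and peroxidase 42, lay 0.43 apart. The distance weighs the size of the ratios: ranked by Pearson correlation over the arrays instead, 2 of the 3 nearest probes of the putative peroxidase were kept and none of those of the other members.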

How the data were processed

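The authors subtracted background, applied print-tip loess to each array and, by their methods, scaled ratios between arrays in limma (the deposited spread was not equal across ageing times), and deposited 1 log2 ratio per probe and array, in steps of 0.01 and with no missing value. Spot intensities were not analysed here. The direction, aged over non-aged, is that of the legend of the supplementary table of expression ratios, and all 717 probes of that table had the same sign as the deposited mean. All 9 arrays were fitted in limma 3.58.1 (R 4.3.3) with 1 coefficient per ageing time and 6 residual degrees of freedom. P-values were adjusted after Benjamini and Hochberg over 5246 probes, and the fit was tested on simulated data. Differences between ageing times were contrasts of the same fit with no fold threshold. Values were summarised in Python 3.11.15. The number of arrays limits the precision. Replicates were grown and harvested independently according to the submitters, and p-values cover the spread between 3 arrays.

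The members and lists were chosen with earlier results of these data known. The genes named are the 8 members, further probes that the supplementary tables name as redox enzymes, ferritins or oxidative stress genes, and the 3 probes nearest to each member. No table used here pairs probes with sequences or positions, so that none are given. The alternatives tried were fits to single ageing times, with a dye term or with replicate as a block, arrays centred or scaled, fits without each replicate in turn, other thresholds (adjusted p of 0.10, no fold, log2 ratio of 1.5) and likeness by correlation. They were applied to the untested differences after the data were seen.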

Additional observations from a re-analysis of the deposited data

Results flagged for a closer look

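Ratios that differed between ageing times by limma's test drew a closer look in 8 cases, all among the 4 members that were tested. For peroxidase 42 (PSOLI00944) the difference was -0.53 from 8 d to 15 d and -0.39 from 12 d to 15 d. For glutathione peroxidase (PSOLI04501) it was -0.35 and -0.29 in the same order, and for thioredoxin h (PSOLI04247) 0.21 and 0.24. For monodehydroascorbate reductase (PSOLI00933) it was -0.34 over 8 d to 15 d and -0.24 over 8 d to 12 d.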

How the results depend on the processing

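With the same median absolute deviation on all arrays, 1 of the 4 tested members differed between 15 d and 8 d instead of 4, and 1 between 15 d and 12 d instead of 3. Monodehydroascorbate reductase (PSOLI00933) turned between 12 d and 15 d, to 0.057 (adjusted p of 0.59), from a difference that had not passed the test. The means of the 8 members kept their direction under all alternatives and moved by at most 0.14 on the log2 scale. A log2 ratio of at least 1.5 left 0 members up-regulated at 8, 12 and 15 d and 0 down-regulated at 8 and 12 d. At 15 d it left 2 down-regulated, beside 2.54% of all probes. The other shares of all probes at that threshold were not counted. With no fold threshold, 2 members were up-regulated at 12 d and 2 at 15 d, beside 37.1% and 38.2% of all probes. The 6 members down-regulated at each time stood beside 34.0%, 34.1% and 34.3% at 8, 12 and 15 d. Without 1 replicate, between 0 and 1 of the 4 tested members differed between 12 d and 8 d, between 3 and 4 between 15 d and 8 d and between 2 and 3 between 15 d and 12 d. Without replicate 3, glutathione peroxidase (PSOLI04501) turned between 8 d and 12 d, to 0.065 (adjusted p of 0.59), and leaving out each replicate gave -0.14 to 0.065. Of the 9 further probes, between 1 and 3 were called down-regulated at 12 d without 1 replicate, the lowest number without replicate 3. For the fits without 1 replicate, the share of all probes called was not counted, so that these numbers have no background beside them. Arrays with the same replicate number did not deviate together (r between -0.01 and 0.06 across probes), and with the replicate block the same numbers of tested members differed, 4, 1 and 3 between 15 d and 8 d, 12 d and 8 d, and 15 d and 12 d. Of the 24 probes nearest to the members, 2 were shared with those nearest by correlation. The cause of these shifts was not tested.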
